A study of Mus musculus with 15 samples.

Results

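The receptors described here are the 10 pituitary receptors through which hypothalamic hormones other than gonadotropin-releasing hormone (GnRH) act: Ghrhr, Ghsr, Trhr, Crhr1, Avpr1b, Drd2, Sstr1, Sstr2, Sstr3 and Sstr5. They were taken by symbol from a table of 55523 rows, and each of the 10 was found in 1 row. The libraries came from a study of PE, an enhancer inside the Nr5a1 gene that drives this nuclear receptor in the gonadotrope, the pituitary cell that makes luteinizing and follicle-stimulating hormone. Messenger RNA of the whole pituitary gland was sequenced from PE+/- males (4 libraries), PE-/- males (4), PE+/- females (4) and PE-/- females (3), with PE removed by CRISPR/Cas9 from 1 copy of Nr5a1 in PE+/- mice and from both copies in PE-/- mice. The control mice therefore also lacked PE on 1 copy, and no mice with 2 intact copies were analysed here. The deletion is carried by every cell of the mouse, and an effect inside the pituitary and an effect through gonadal hormones cannot be told apart. The age of the sequenced mice and the number of glands per library were not given in the sources used here, and the p-values measure the spread between these libraries.

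Hypothalamic hormones reach the anterior pituitary through the portal blood and bind G protein-coupled receptors on its hormone-making cells. Growth hormone-releasing hormone acts on GHRHR and raises cyclic AMP in somatotropes, the cells that make growth hormone, while ghrelin acts on GHSR and raises calcium in the same cells. Somatostatin acts on the SSTR receptors, lowers cyclic AMP and holds back the release of growth hormone and thyrotropin. Thyrotropin-releasing hormone acts on TRHR in thyrotropes and lactotropes, corticotropin-releasing hormone on CRHR1 and vasopressin on AVPR1B in corticotropes, and dopamine on DRD2 in lactotropes and in the melanotropes of the intermediate lobe.

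The genes lie on GRCm38 (mm10) chromosomes 6 (Ghrhr), 3 (Ghsr), 15 (Trhr and Sstr3), 11 (Crhr1 and Sstr2), 1 (Avpr1b), 9 (Drd2), 12 (Sstr1) and 17 (Sstr5). Sstr5 spans chr17:25489875-25497288 and Ghsr spans chr3:27371351-27378010. The somatostatin receptors are a family of related sequences, and the stretch that Sstr3 and Sstr5 share is shown because it bears on whether their reads can be told apart. It is 41 bases long, lies wholly in the coding sequence of both genes (chr15:78539866-78539906 and chr17:25491598-25491638, minus strand), and is given from the GENCODE transcripts.
Sstr3 and Sstr5, shared run: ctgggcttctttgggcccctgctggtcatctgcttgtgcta
No other pair among the 4 subtypes shared more than 23 bases in a row. No stretch of 50 bases of any member occurred in another gene's transcripts except 0.0746% of those of Avpr1b, which occur in Tnrc18. Before trimming, the study's reads were longer than 50 bases, so a full-length read of Sstr3 would not match the Sstr5 transcripts throughout. Sstr2 overlaps Slc39a11 on the other strand. Whether the counting used strand was not given in the sources used here, so reads of Sstr2 and Slc39a11 may have been mixed.

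Promoter sequences, from 250 bases before to 50 bases after the start, were found in the RefSeq table (GRCm38.p6) for 5 of the 10 receptors, with 6 promoters in all: Ghsr, Drd2, Crhr1, Sstr2 and Sstr3. They were searched on both strands for TCAAGGTCA and CAAGGTCA (NR5A1, the second being part of the first), the oestrogen response element, TGACGTCA (the cyclic AMP response element), and TATGCAAAT and ATGNATAA (POU factors, the family of the somatotrope factor PIT1). The shares of all 32851 promoters that hold these were 0.423%, 1.56%, 0.07%, 1.79%, 0.627% and 3.05%. The only match among the 6 promoters was TGACGTCA in Sstr2. The Sstr2 promoter (plus strand) is shown for this match, in capitals, and that of Ghsr (plus strand) because its level separated the groups, although none of the 6 motifs is in this window.
Sstr2 chr11:113619077-113619376: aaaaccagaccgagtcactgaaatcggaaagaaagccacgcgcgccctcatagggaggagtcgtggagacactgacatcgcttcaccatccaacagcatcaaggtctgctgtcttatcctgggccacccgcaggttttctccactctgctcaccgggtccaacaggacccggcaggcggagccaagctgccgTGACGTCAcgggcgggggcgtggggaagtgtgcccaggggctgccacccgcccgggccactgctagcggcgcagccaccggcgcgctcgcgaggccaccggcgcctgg
Ghsr chr3:27371101-27371400: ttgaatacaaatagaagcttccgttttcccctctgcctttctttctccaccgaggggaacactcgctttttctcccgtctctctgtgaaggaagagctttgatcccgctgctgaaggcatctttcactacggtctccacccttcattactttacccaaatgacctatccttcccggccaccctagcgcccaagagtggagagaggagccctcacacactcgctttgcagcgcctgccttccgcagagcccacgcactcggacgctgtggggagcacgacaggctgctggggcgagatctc
The Ghsr promoter was 56.3% G and C and held 16 CpG, against medians of 52.7% and 7 over all promoters. Those of Crhr1 (75%, 31 CpG) and Drd2 (70.3%, 23 CpG) were richer. A match in these letters is a description and not a binding site.

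The libraries held 12982794 to 30238443 counts. Levels are given as CPM, the counts of a gene scaled to a common library size by TMM, a normalization on the bulk of the genes. About 4 counts were taken as 1 sequenced fragment, and 12 counts or fewer was taken as the floor of about 3 fragments. Nr5a1 itself was at 50.2 ± 20.5 CPM in PE+/- males (SD, n = 4), 0.347 ± 0.304 in PE-/- males (n = 4), 38.7 ± 5.13 in PE+/- females (n = 4) and 0.724 ± 0.151 in PE-/- females (n = 3), which matched the labels. Gh was at 59319 CPM or more in every library. Markers of the posterior lobe were not even between libraries: Rax, Nkx2-1 and Avp were each above 1 CPM in PE+/- male replicate 4 (4.2, 3.36 and 2.65 CPM) and PE-/- male replicate 3 (3.94, 2.06 and 7.87 CPM), while none of the 3 exceeded 0.371 CPM in a female library. A list of 6 posterior lobe markers without Avp summed to 189 and 143 CPM in these 2 libraries. It also reached 105 CPM in PE+/- male replicate 2 and 92.9 CPM in PE-/- male replicate 4, against at most 41.5 CPM elsewhere. Tests used edgeR's quasi-likelihood model over all genes, p-values were adjusted by Benjamini and Hochberg's method, and a receptor or gene is called where its adjusted p is under 0.05.

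None of the 10 receptors passed the adjusted threshold in any of the 5 comparisons made, although all 10 were tested in each. Between PE-/- and PE+/- males no receptor was called (background 0.132% of 17392 genes), 1 had an unadjusted p under 0.05 (background 6.14%), DESeq2 called none (1.04%), and none had groups that did not overlap (4.56%). Between PE-/- and PE+/- females no receptor was called (background 1.05% of 18085 genes), 3 had an unadjusted p under 0.05 (16.1%), DESeq2 called 2 (6.24%), and 3 had groups that did not overlap (18.6%), with every PE-/- library higher. Between PE+/- females and PE+/- males none was called (0.67% of 17163 genes), 4 had an unadjusted p under 0.05 (13.5%), DESeq2 called 2 (4%), and 2 did not overlap (9.75%), with every female library lower. Between PE-/- females and PE-/- males none was called (0.0494% of 18217 genes), none had an unadjusted p under 0.05 (3.37%), DESeq2 called none (0.206%), and none had groups that did not overlap (5.24%). For the difference of the genotype effect between the sexes none was called (0.161% of 19286 genes), 2 had an unadjusted p under 0.05 (10.1%), and DESeq2 called 2 (1.91%). The comparisons share libraries: the PE+/- females enter both the female genotype comparison and the sex comparison of PE+/- mice, so the 2 are not independent.

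The directions of the fitted differences were also counted. All 10 receptors had a higher fitted level in PE-/- than in PE+/- females, with a median log2 fold change of 0.50 against 0.00 over all genes tested. Sstr3 (0.04), Sstr1 (0.064) and Avpr1b (0.11) were close to no change, and each took the other sign in some fit that left out 1 library. In males 5 were higher and 5 lower, with a median of 0.03 against 0.00. PE+/- females were lower than PE+/- males for 8 of the 10, with a median of -0.50 against -0.01. Between the sexes in PE-/- mice 5 were higher and 5 lower, with a median of 0.00. The receptors share libraries, and these counts carry no test.

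**Figure D1:**
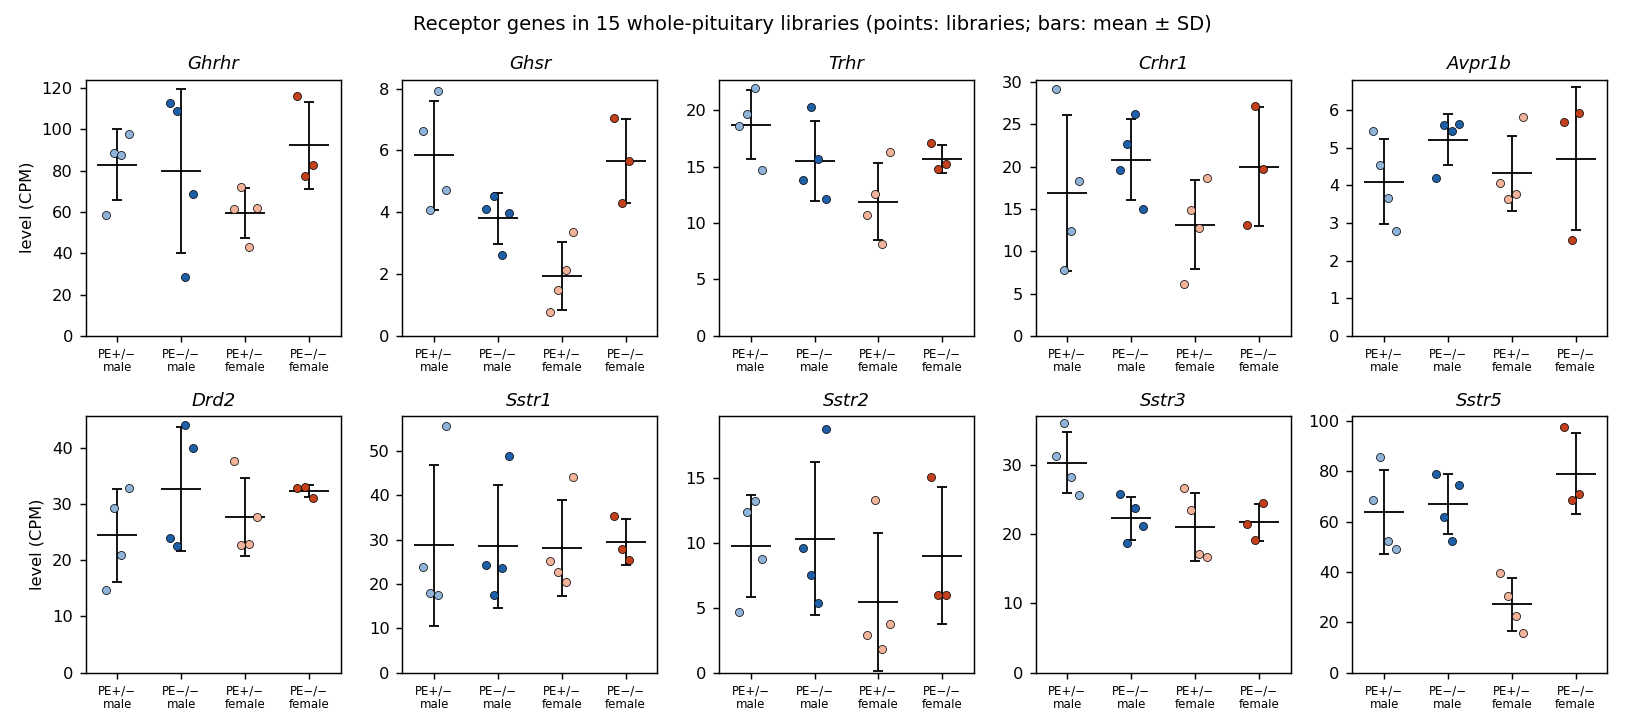
Level of each of the 10 receptors (CPM, linear axis from 0) in the 15 libraries, by group. Points are libraries and bars are the mean ± SD of 4 libraries, or 3 for PE-/- females. The 4 PE+/- female libraries lie below all PE-/- female and all PE+/- male libraries for Ghsr and Sstr5.

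Sstr5, a receptor for somatostatin and by its mean the most abundant of the 10 per length of transcript in both PE-/- groups, had the lowest p of the 10 in the female genotype comparison. It was at 39.7, 30.6, 22.4 and 15.7 CPM in the 4 PE+/- female libraries and at 97.8, 68.7 and 71.1 CPM in the 3 PE-/- female libraries. The highest PE+/- library was thus well below the lowest PE-/- library, with no overlap. In PE+/- males it was at 68.7, 85.6, 52.4 and 49.2 CPM and in PE-/- males at 79.2, 62, 52.5 and 74.6 CPM, and these groups overlapped fully. The female groups differed by a log2 fold change of 1.54 (SE 0.32, 95% interval 0.79 to 2.29), which missed the threshold (edgeR quasi-likelihood adjusted p = 0.0789). PE+/- females were 1.23 lower than PE+/- males on the log2 scale (fitted -1.23, interval -1.95 to -0.51, edgeR adjusted p = 0.141). In males the genotypes differed by 0.07 (interval -0.42 to 0.55, edgeR adjusted p = 0.988), and the difference between the sexes in the genotype effect was 1.48 (interval 0.64 to 2.32, edgeR adjusted p = 0.18). DESeq2 passed the threshold for Sstr5 in the female comparison (adjusted p = 0.000796), in the sex comparison of PE+/- mice (0.0101) and for the interaction (0.0278). Over the 15 alternatives the adjusted p of the female comparison ran from 0.000796 to 0.223, with edgeR's quasi-likelihood model passing only without PE+/- female replicate 1 (0.0498) or with 1 fit on all 15 libraries (0.0105).

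Ghsr, the ghrelin receptor, was also lower in every PE+/- female library than in every PE-/- female and PE+/- male library, at a far lower level than Sstr5. It was at 0.782, 1.47, 2.12 and 3.36 CPM in PE+/- females and at 7.04, 4.3 and 5.65 CPM in PE-/- females. PE+/- female replicates 1 to 4 held only 10, 35, 39 and 55 counts, the first under the floor of 12. At about 4 counts per fragment, the level of this group rests on few fragments. Every PE-/- female library was above every PE+/- one. In males it was at 6.62, 4.08, 7.93 and 4.72 CPM in PE+/- and at 4.1, 4.52, 2.62 and 3.98 CPM in PE-/- libraries, with overlap, and the PE-/- males also overlapped the PE+/- females. The log2 fold change was 1.54 in females (SE 0.46, interval 0.47 to 2.60, edgeR adjusted p = 0.158) and -0.62 in males (SE 0.28, interval -1.25 to 0.02, edgeR adjusted p = 0.818). The difference between these effects was 2.16 (SE 0.54, interval 1.01 to 3.31, edgeR adjusted p = 0.146), and the lowest p of any receptor in that test belonged to Ghsr, ranked 174 of 19286 genes. PE+/- females were lower than PE+/- males, with a log2 fold change of -1.59 (interval -2.58 to -0.60, edgeR adjusted p = 0.159), and the groups did not overlap. DESeq2 passed the threshold for Ghsr in the female comparison (adjusted p = 0.0437), in the sex comparison of PE+/- mice (0.0238) and for the interaction (0.0104). Over all alternatives the adjusted p ran from 0.0437 to 0.361, from 0.0238 to 0.377 and from 0.0104 to 0.501 in these 3 comparisons.

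Ghrhr, the receptor for growth hormone-releasing hormone and the third whose female groups did not overlap, was at 61.6, 72.1, 43 and 61.8 CPM in PE+/- females and at 116, 77.5 and 83 CPM in PE-/- females. The gap between the groups was narrow, from 72.1 to 77.5 CPM. The log2 fold change was 0.62 (SE 0.22, interval 0.10 to 1.14, edgeR adjusted p = 0.23). In males it was at 58.4, 88.4, 87.5 and 97.8 CPM in PE+/- and at 113, 109, 28.4 and 68.7 CPM in PE-/- libraries, where 1 library, replicate 3, was far below the rest. That library held the highest levels of the melanotrope markers Pax7 (56.8 CPM) and Oacyl (408 CPM), and the part of its cell content in the Ghrhr value was not tested. The male log2 fold change was -0.06 (interval -0.95 to 0.84, edgeR adjusted p = 0.995), and 0.22 without replicate 3.

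Gh, the growth hormone gene of the cells that carry GHRHR and GHSR, was at 162435 ± 22314 CPM in PE+/- males (SD, n = 4), 106840 ± 29408 in PE-/- males (n = 4), 78642 ± 19906 in PE+/- females (n = 4) and 121731 ± 46561 in PE-/- females (n = 3). PE+/- females were below PE+/- males (log2 fold change -1.04, edgeR adjusted p = 0.101), and the female genotypes differed by 0.62 (edgeR adjusted p = 0.365). PE-/- males (65618 to 129549 CPM) lay below PE+/- males (134149 to 186860 CPM) without overlap (log2 fold change -0.61, edgeR adjusted p = 0.727). Of all genes 4.56% did not overlap between these groups, in either direction. In whole glands fewer cells of a type and less RNA per cell cannot be told apart. Gh was also used as a denominator, which does not separate the 2, because the mean Gh level itself differed between groups. Per 1000 Gh counts, Sstr5 stood at 0.396 ± 0.0943 in PE+/- males, 0.336 ± 0.0517 in PE+/- females, 0.647 ± 0.103 in PE-/- males and 0.679 ± 0.118 in PE-/- females. On this scale the PE-/- libraries of both sexes (0.561 to 0.801) lay above the PE+/- libraries of both sexes (0.265 to 0.5), while PE+/- males and females overlapped. In males Gh, the denominator, was lower in PE-/- libraries, and the Sstr5 level itself overlapped (64 ± 16.7 CPM in PE+/- and 67.1 ± 12.1 in PE-/- libraries). The share of all genes that separate on this scale was not computed. Ghrhr per 1000 Gh counts was 0.521 ± 0.152, 0.784 ± 0.212, 0.72 ± 0.279 and 0.787 ± 0.116 in the same order, and Ghsr was 0.0359 ± 0.00867, 0.0283 ± 0.0212, 0.0365 ± 0.00573 and 0.0481 ± 0.00702. Sstr2 was 0.0594 ± 0.0202, 0.0697 ± 0.0632, 0.094 ± 0.0368 and 0.071 ± 0.0146. For Ghrhr, Ghsr and Sstr2 the ranges of the genotypes overlapped in both sexes. The sum of the 5 somatotrope markers (Gh, Pou1f1, Eno1, Dlk1 and Neurod4) is mostly Gh. It was 61531 to 106825 CPM in PE+/- females and 87869 to 176696 CPM in PE-/- females, which overlapped. Between the female genotypes 2 of the 5 were higher and 3 lower in PE-/- libraries (median log2 fold change -0.081). None of the 5 was called in any comparison, and their part in the receptor levels was not tested.

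**Figure D2:**
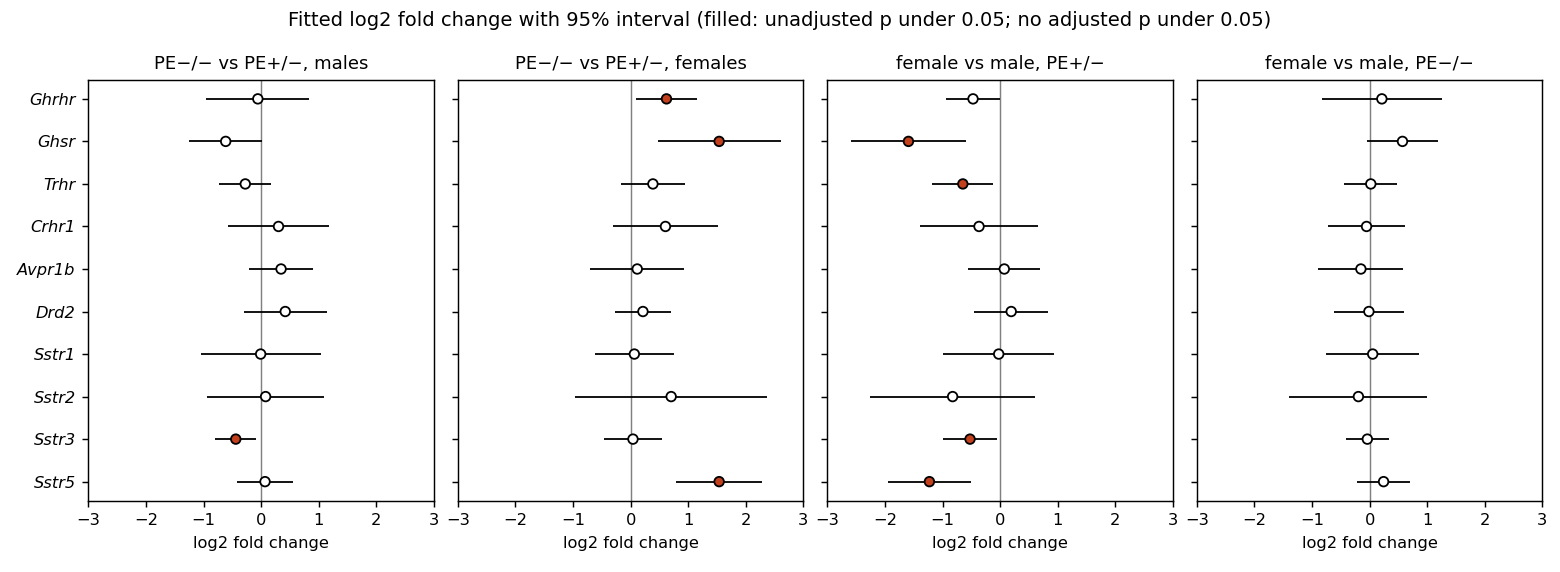
Fitted log2 fold change of each receptor (horizontal axis, with 95% interval) in 4 comparisons, from left to right genotype in males, genotype in females, sex in PE+/- mice and sex in PE-/- mice. Filled points have an unadjusted p under 0.05, and no adjusted p was under 0.05. The intervals of Ghrhr, Ghsr and Sstr5 exclude 0 in the female genotype comparison, and no interval excludes 0 between the sexes in PE-/- mice.

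The groups of the other 3 somatostatin receptors overlapped in both genotype comparisons. Sstr3 was at 31.3, 36, 28.3 and 25.7 CPM in PE+/- males and at 25.8, 18.7, 23.7 and 21.1 CPM in PE-/- males. The male groups met at 25.7 and 25.8 CPM. It was the receptor with the only unadjusted p under 0.05 among males (log2 fold change -0.44, SE 0.16, interval -0.80 to -0.08), and its edgeR adjusted p was 0.685. In females it was at 21 ± 4.87 CPM in PE+/- and 21.7 ± 2.66 in PE-/- libraries (SD, n = 4 and 3), close to PE-/- males (22.3 ± 3.09), and PE+/- females were below PE+/- males by a log2 fold change of -0.52 (interval -0.99 to -0.06, edgeR adjusted p = 0.31). Sstr1, with group means of 28.1 to 29.5 CPM, varied more between libraries than between groups. It was at 55.5, 48.9 and 44.2 CPM in replicate 4 of the 2 male groups (PE+/- first) and of the PE+/- females, the highest value of each of these groups, against 17.4 to 25.1 CPM in their other libraries. Of 19286 genes 246 (1.28%) were highest in replicate 4 of all 3 groups, and nothing in the labels says that this number marks a batch. Sstr2 had the largest spread relative to its mean in every group but PE+/- males: it ran from 1.8 to 13.3 CPM over the 4 PE+/- females and from 5.97 to 15.1 CPM over the 3 PE-/- females. Its intervals were accordingly wide (female log2 fold change 0.70, interval -0.96 to 2.37, edgeR adjusted p = 0.714).

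Compared per kilobase of exon, the subtypes took different shares of the somatostatin receptor messenger RNA. Sstr5 made up 48.1 ± 11.2% of the 4 subtypes in PE+/- males (SD, n = 4), 51.6 ± 7.3% in PE-/- males (n = 4), 32.1 ± 10.6% in PE+/- females (n = 4) and 55.1 ± 0.373% in PE-/- females (n = 3). Its shares in the single PE+/- female libraries were 42.4%, 33%, 35.7% and 17.4%, all below the 3 PE-/- female libraries at 55%, 54.7% and 55.4%. Sstr1 made up 44.4 ± 14.8% in PE+/- females and 27.5 ± 1.74% in PE-/- females, while its level was 28.1 ± 10.9 and 29.5 ± 5.2 CPM (log2 fold change 0.06, interval -0.62 to 0.75). Sstr5 held the largest share in 3 of 4, 4 of 4, 2 of 4 and 3 of 3 libraries of the groups in the order above, and Sstr1 in the others. The summed level of the 4 subtypes was 49 ± 7, 48.5 ± 12.4, 31.1 ± 5.41 and 52.7 ± 10.8 CPM per kilobase in the same order, with the PE+/- female libraries (23 to 34.3) below every other library (38.7 to 65.1). The shares are a description and carry no test.

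**Figure D3:**
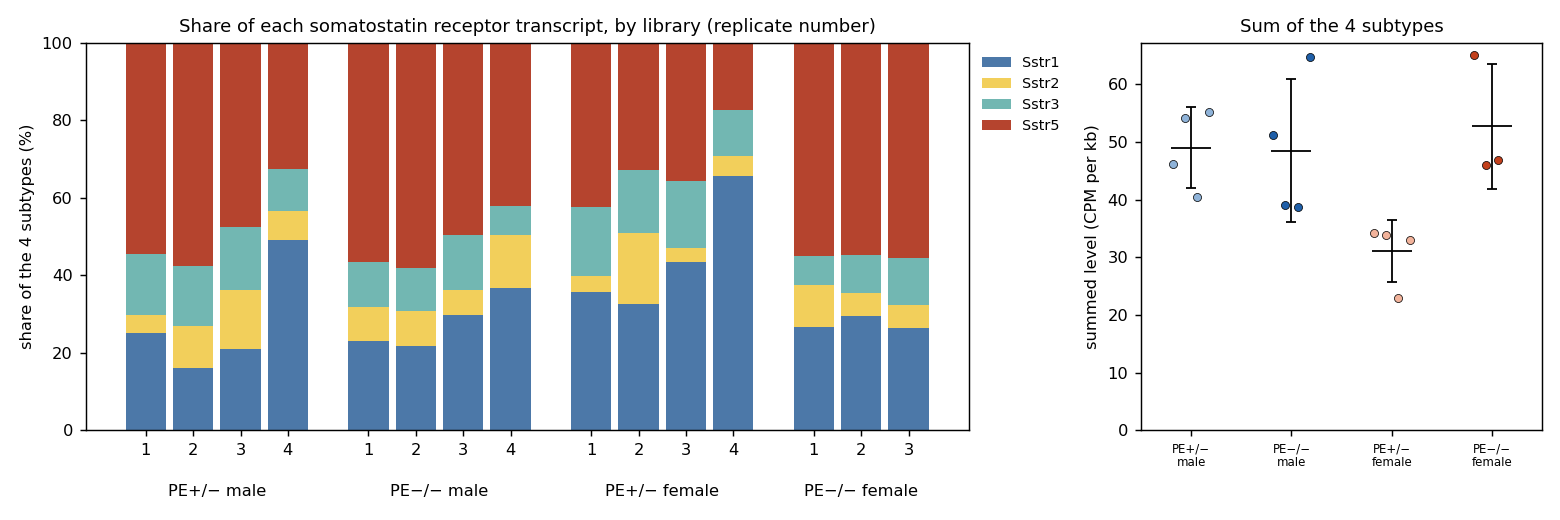
Left, share of Sstr1, Sstr2, Sstr3 and Sstr5 in their summed level per kilobase (%), for each library by replicate number. Right, the summed level (CPM per kilobase) by group, with points for libraries and bars for mean ± SD. The Sstr5 share is 17.4 to 42.4% in PE+/- females and 54.7 to 55.4% in PE-/- females.

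Trhr, the receptor for thyrotropin-releasing hormone, was at 18.6, 19.7, 22 and 14.7 CPM in PE+/- males and at 10.7, 12.6, 8.17 and 16.3 CPM in PE+/- females. The sexes overlapped through the last library of each. The log2 fold change of PE+/- females against PE+/- males was -0.65 (SE 0.23, interval -1.18 to -0.12, edgeR adjusted p = 0.269). PE-/- males were at 12.1 to 20.3 CPM and PE-/- females at 14.8 to 17.1 CPM, and neither genotype comparison reached an unadjusted p of 0.05 (log2 fold change -0.28, interval -0.73 to 0.18 in males, and 0.39, interval -0.17 to 0.95 in females). Tshb, the thyrotropin gene made by the cells that carry TRHR, was not called in any comparison.

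The corticotrope receptors Crhr1 and Avpr1b did not pass in any comparison. Crhr1 was at 29.1, 7.79, 12.4 and 18.3 CPM in PE+/- males, a spread that covered nearly the whole range of the other groups (6.17 to 27.2 CPM). The log2 fold change was 0.30 in males (interval -0.57 to 1.17, edgeR adjusted p = 0.983) and 0.60 in females (interval -0.31 to 1.52, edgeR adjusted p = 0.519). Avpr1b, the vasopressin receptor of corticotropes, was low, with group means of 4.1 to 5.21 CPM. Its genotype difference was 0.34 in males (interval -0.21 to 0.90, edgeR adjusted p = 0.97) and 0.11 in females (interval -0.70 to 0.93, edgeR adjusted p = 0.925). The intervals leave room for changes of over 1.5-fold in both genes. Crhbp, which encodes the binding protein that takes up the ligand of CRHR1, differed far more than the receptor: it was at 319 ± 127 CPM in PE+/- females (161 to 471), 0.0722 ± 0.125 in PE-/- females, 0 in all 4 PE+/- males and 0.219 ± 0.254 in PE-/- males. It fell in PE-/- against PE+/- females (edgeR adjusted p = 0.00698), was higher in PE+/- females than in PE+/- males (adjusted p = 0.00503), and its genotype effect differed between the sexes (adjusted p = 0.0184). Neurod1, a corticotrope transcription factor, rose in PE-/- females from 16 ± 2 to 36.5 ± 6 CPM (edgeR adjusted p = 0.0328), and Pomc, the hormone precursor of these cells, was not called.

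Drd2, the dopamine receptor that restrains prolactin release, showed no difference past the threshold. It was at 14.7, 29.2, 20.9 and 32.9 CPM in PE+/- males and at 23.9, 22.6, 44.1 and 40 CPM in PE-/- males, and at 37.6, 22.7, 22.9 and 27.7 CPM in PE+/- females and 32.9, 33.1 and 31 CPM in PE-/- females. Both pairs of groups overlapped. The log2 fold change was 0.42 in males (interval -0.30 to 1.14, edgeR adjusted p = 0.972) and 0.21 in females (interval -0.28 to 0.70, edgeR adjusted p = 0.7). Prl, the prolactin gene, over the same female libraries fell from 30123 ± 5984 to 5084 ± 579 CPM, a log2 fold change of -2.58 (edgeR quasi-likelihood adjusted p = 0.00698). The Drd2 level moved with several marker lists. After removal of the group means its log2 level correlated across the 15 libraries with the summed posterior lobe markers (r = 0.843), the melanotrope (0.565) and corticotrope markers (0.56), whose sums are both mostly Pomc, and the immune (0.544), erythroid (0.51) and stem or folliculostellate markers (0.494), and inversely with the endothelial markers (-0.686). Other receptors moved with other lists. With the summed somatotrope markers, which are mostly Gh, r was 0.758 for Sstr5, 0.635 for Ghrhr, 0.52 for Sstr2 and 0.398 for Sstr3. For Crhr1 r was -0.676, and for the rest -0.146 to 0.179, with Ghsr at 0.004. These values describe libraries in which all cell types share 1 sample, and the part of cell content in the level of Drd2 or the other receptors was not tested. The 6 posterior lobe markers summed to 92.9 and 143 CPM in the 2 PE-/- male libraries with the highest Drd2, against 36 and 40.6 CPM in the other 2. Pax7, a melanotrope factor, was at 39.4 and 56.8 CPM in the former and 20.8 and 28.7 CPM in the latter.

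**Figure D4:**
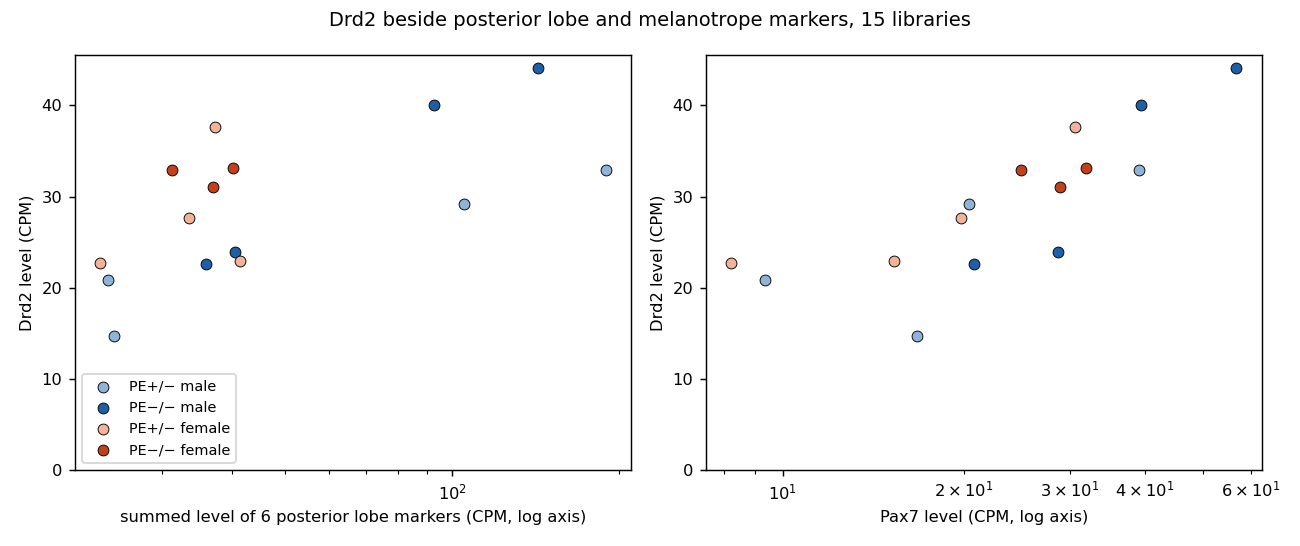
Level of Drd2 (CPM, linear axis from 0) in the 15 libraries against the summed level of 6 posterior lobe markers (left, CPM, log axis) and against Pax7 (right, CPM, log axis), with colours for the 4 groups. The 2 highest Drd2 levels, 44.1 and 40 CPM, are PE-/- male libraries with Pax7 at 56.8 and 39.4 CPM.

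Per kilobase of exon, Ghrhr and Sstr5 were the most abundant of the 10 in 3 of the groups, at 23.8 ± 4.9 and 23.4 ± 6.13 CPM per kilobase in PE+/- males (SD, n = 4), and their ranges overlapped. Sstr1 (14 ± 8.87) and Drd2 (9.59 ± 3.23) followed, then Sstr3, Crhr1, Trhr and Sstr2 between 4.55 and 7.02, and Ghsr (1.32 ± 0.398) and Avpr1b (1.02 ± 0.283) last. Neighbours in this order overlapped in range except at the step from Sstr2 to Ghsr. In PE+/- females the order was Ghrhr (17.1 ± 3.48), Sstr1 (13.7 ± 5.33), Drd2 (10.9 ± 2.74) and then Sstr5 (9.92 ± 3.79), whose ranges overlapped from each to the next, and Ghsr was last at 0.436 ± 0.247. In PE-/- males Sstr5 (24.5 ± 4.43) and Ghrhr (22.9 ± 11.4) overlapped again, and Ghsr (0.858 ± 0.185) was below Avpr1b (1.3 ± 0.17) without overlap. In PE-/- females Sstr5 (29 ± 5.92) and Ghrhr (26.5 ± 6.04) stood above Sstr1 (14.4 ± 2.54) with no overlap.

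The signalling chain behind the receptors held no called gene. Of 39 genes for G proteins, adenylyl cyclases, protein kinases and other effectors, 36 were tested between the female genotypes, and 31 were higher and 5 lower in PE-/- libraries (median log2 fold change 0.33 against 0.00 over all genes). None was called, with 10 of 36 at an unadjusted p under 0.05 (16.1% over all genes), and Itpr1, a calcium channel opened by inositol trisphosphate, had the lowest p (40.6 ± 2.34 to 62.6 ± 9.48 CPM, edgeR adjusted p = 0.0978). In PE+/- females against PE+/- males 7 of 36 were higher and 29 lower (median -0.33), and Prkca, a protein kinase C, came closest to the threshold (13.1 ± 1.5 against 23.9 ± 2.65 CPM, edgeR adjusted p = 0.0518). In males 11 were higher and 25 lower (median -0.10), led by Plcb1 (edgeR adjusted p = 0.641), and in PE-/- mice 23 of 38 were higher in females, led by Prkar2a (edgeR adjusted p = 0.997). The list's interaction had a median of 0.51, with 9 of 37 genes at an unadjusted p under 0.05 (10.1% over all genes) and Prkca lowest (edgeR adjusted p = 0.172).

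Of 14 genes for the ligands and their makers, 3 passed the filter in the comparisons of 2 groups and 4 in the interaction, and none was called. Th, the enzyme that limits dopamine synthesis, had the lowest p in females (0.105 ± 0.209 to 3.99 ± 3.37 CPM, edgeR adjusted p = 0.106) and between the sexes in PE+/- mice (adjusted p = 0.0875). Of 15 regulators of receptor or ligand, 13 to 15 were tested, and Crhbp alone was called, in the 3 comparisons given above. In males Rgs5, a regulator of G protein signalling that is also a marker of pericytes, had the lowest p (483 ± 103 to 277 ± 80.9 CPM, edgeR adjusted p = 0.505). Of 23 other receptors of the same families in the table, 10 to 12 were tested. Gnrhr, the GnRH receptor, fell in PE-/- males (148 ± 37.4 to 5.48 ± 2.67 CPM, edgeR adjusted p = 0.00991) and in PE-/- females (95.8 ± 13.2 to 6.87 ± 2.44 CPM, adjusted p = 0.00633). Npbwr1, a receptor for neuropeptides B and W, rose in PE-/- males (2.74 ± 0.769 to 32.1 ± 8.3 CPM, edgeR adjusted p = 0.00447) and in PE-/- females (2.02 ± 0.748 to 40.7 ± 8.7 CPM, adjusted p = 0.00698). Drd4, a D2-like dopamine receptor, was at 8.23 ± 9.2 CPM in PE+/- males and 0.122 ± 0.244 in PE+/- females (edgeR adjusted p = 0.109), and was at 0 in all 7 PE-/- libraries.

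Lists that mark hormonal state and cell content were read beside the receptors. Of 8 oestrogen-induced genes, 4 fell in PE-/- females, where 1.05% of all genes were called: Greb1 (31.8 ± 22.8 to 0.679 ± 0.153 CPM, edgeR adjusted p = 0.0195), Rxfp1 (31.5 ± 9.88 to 0 CPM, adjusted p = 0.00698), Gal (581 ± 329 to 1.77 ± 0.763 CPM, adjusted p = 0.0207) and Prl. By fitted level 7 of the 8 were lower and 1 was higher in PE-/- females. The higher one was Cish (54 ± 13.4 to 94.5 ± 0.898 CPM, edgeR adjusted p = 0.131), whose female groups did not overlap. None of the 8 was called in the other comparisons, and Rxfp1 came closest between the sexes in PE+/- mice (adjusted p = 0.0503). Their part in the receptor levels was not tested. Of 14 immediate early genes 13 were higher in PE-/- libraries of each sex and none was called, with Nr4a1 lowest in males (edgeR adjusted p = 0.611) and Dusp1 in females (adjusted p = 0.11). Called cell markers beyond those named were Akr1c14 (464 ± 167 to 0.483 ± 0.114 CPM, edgeR adjusted p = 0.000457), a steroid-metabolising enzyme, in females, Sox14, a thyrotrope factor, in males (0.416 ± 0.245 to 7.6 ± 2.33 CPM, adjusted p = 0.0117), and the gonadotrope genes Lhb (both sexes), Tgfbr3l and Spp1 (females), all 3 lower in PE-/- mice. In males Sox14 went against its list: the other 4 of the 5 thyrotrope markers had a lower fitted level in PE-/- males (list median log2 fold change -0.104). In females Sox14 was also higher in PE-/- libraries but missed the threshold (0.136 ± 0.272 to 8.04 ± 2.71 CPM, edgeR adjusted p = 0.0644). There 4 of the 5 markers were higher and 1 lower. No marker of the melanotrope, stem or folliculostellate, posterior lobe, endothelial, immune or erythroid lists was called in any comparison, and the lowest p of these lists belonged to Oacyl, Aldh1a2, Col25a1, Kdr, Csf1r and Hbb-bs (edgeR adjusted p = 0.288, 0.0634, 0.115, 0.411, 0.128 and 0.233).

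The genes whose log2 levels ran most like each receptor over the 15 libraries were found among 16026 genes, and the correlations describe libraries that share groups and depth. For Sstr5 they were Slc6a11 (r = 0.965), Upk3a (0.961) and Foxred2 (0.958), and for Crhr1 Sumf1 (0.957) and Pcsk1n (0.953). For Ghsr they were Jak1 (0.911), Prkcq (0.907) and Aldh2 (0.887), for Trhr Fads6 (0.887), Evc2 (0.884) and Sntb1 (0.878), and for Ghrhr Nars (0.86), Gm13814 (0.845) and Rtn4 (0.834). For Drd2 they were Rasa3 (0.863), 9930012K11Rik (0.861) and Zkscan7 (0.859), for Sstr2 Ppp4r2 (0.869), Ttr (0.859) and Ralgapa2 (0.839), and for Sstr3 Dgkg (0.846), Lactb (0.826) and B2m (0.82). The likeness was lowest for Avpr1b (Gm6395, 0.785, Rimklb, 0.774, and Gm26620, 0.741) and Sstr1 (Zkscan3, 0.767, Hdac3, 0.737, and Plekhm2, 0.733). Among the receptors themselves the highest correlation after removal of the group means was that of Sstr3 and Sstr5 (r = 0.751). Ghsr and Sstr5, both with their lowest group mean in PE+/- females, ran inversely on this measure (r = -0.53).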

How the data were processed

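Messenger RNA of whole pituitary glands was sequenced in 15 libraries. The deposited table holds estimated counts, as whole numbers per gene. Per the labels and the study's methods, the authors trimmed reads with cutadapt, aligned them with STAR to mm10 (GRCm38) and counted them with featureCounts, although 28933 of the 55523 rows are named as loci of a transcript assembly, which those methods do not describe. In genes with 1 transcript, counts of 5, 9 and 13 exceeded their neighbours in frequency (ratios 1.413, 1.159 and 1.069). A count of 17 did not (0.981), and no other value was examined. These steps of 4 were read as about 4 counts per fragment, so counting error is taken to be larger than the counts alone give. Each symbol was taken from its row with the most counts, and levels per kilobase used the exons of GENCODE vM21.

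Low genes were removed with edgeR's filterByExpr (10 counts, 15 in total), and the rest were normalized by TMM and tested with the quasi-likelihood model of edgeR 4.0.16 in R 4.3.3, two-sided, with Benjamini-Hochberg adjustment over all genes tested and a threshold of 0.05. Each comparison of 2 groups used only its own libraries, and the interaction used all 15. The steps were tested on simulated data. DESeq2 1.42.0, the likelihood ratio test, other size factors, no filter, counts divided by 4, the replicate number as a block, a fit on all libraries, rows summed per symbol and leaving out each library were alternatives. Library totals were 12982794 to 30238443 counts. No 2 libraries of a group agreed within sampling noise.

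Beside the 10 receptors, genes were named if past the threshold in a list (or, where a list had none, with its lowest p), or if among the 3 most like a receptor, of which 1 is not reported here. The receptors and lists were chosen with earlier results of these data known.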

Additional observations from a re-analysis of the deposited data

Results flagged for a closer look

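Each receptor was checked in the groups of 4 libraries for a value that stands apart, 30 checks in all, of which chance gives about 1 in 20. Sstr1 in PE+/- male replicate 4, at 55.5 CPM, lay far above the other 3 libraries of its group, with a gap of 0.833 of the group's range. The posterior lobe markers were also highest in this library, and their part in the Sstr1 value was not tested. Avpr1b in PE-/- male replicate 1, at 4.2 CPM, lay below the other 3, with a gap of 0.862 of the range.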

How the results depend on the processing

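The count of receptors past the threshold was 0 in all 5 comparisons and stayed at 0 with DESeq2 size factors, without the filter on low counts, with counts divided by 4, with rows summed per symbol and with the replicate block. It was 2 (Ghsr and Sstr5) in the female genotype comparison and 2 in the sex comparison of PE+/- mice with each of DESeq2, the likelihood ratio test and 1 fit on all libraries, and for the interaction it was 2 with DESeq2 and 1 (Ghsr) with the likelihood ratio test. In the female comparison it ran from 0 to 1 when each library was left out, the 1 being Sstr5 without PE+/- female replicate 1 (log2 fold change 1.78, edgeR adjusted p = 0.0498, with 0.000796 to 0.223 over its 15 alternatives).

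The replicate numbers did not pair the libraries (correlation of same-numbered deviations -0.08 to 0.13). With the number as a block, no receptor was called, 1 gene was called in females in place of 189, and 11 for the interaction in place of 31. Under the block the log2 fold change took the other sign for Sstr1 in males (0.059) and in the sex comparison of PE+/- mice (0.085), for Sstr3 in females (-0.04), and in PE-/- mice between the sexes for Trhr (-0.065), Drd2 (0.17) and Sstr2 (0.16).

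Further alternatives were chosen after seeing the data. None of them left out PE+/- male replicate 2, where the 6 posterior lobe markers summed to 105 CPM. Without the 2 libraries in which Rax, Nkx2-1 and Avp were each above 1 CPM the sign turned in males for Ghrhr (0.31) and Sstr1 (0.61), in PE+/- mice between the sexes for Avpr1b (-0.078) and Sstr1 (0.51), in PE-/- mice for Ghrhr (-0.069), Crhr1 (0.077), Drd2 (0.17) and Sstr1 (-0.028), and in the interaction for Sstr1 (-0.53). Without PE-/- male replicates 3 and 4 it turned in males for Ghrhr (0.42), Drd2 (-0.073) and Sstr2 (-0.19), in PE-/- mice for Ghrhr (-0.27), Trhr (-0.12), Drd2 (0.48) and Sstr2 (0.071), and in the interaction for Drd2 (0.29). These were the 2 PE-/- male libraries with the highest Drd2, so the direction of its shift follows from the choice. For the other receptors the cause was not tested, and none of these values passed the threshold in any fit.

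Leaving out each library turned the sign of 22 of the 50 log2 fold changes. In males they ran from -0.27 to 0.22 (Ghrhr), -0.40 to 0.53 (Sstr1), -0.38 to 0.29 (Sstr2) and -0.04 to 0.24 (Sstr5), and in females from -0.081 to 0.41 (Avpr1b), -0.079 to 0.36 (Sstr1) and -0.066 to 0.18 (Sstr3). In PE+/- mice between the sexes they ran from -0.61 to 0.038 (Crhr1), -0.11 to 0.24 (Avpr1b), -0.005 to 0.36 (Drd2) and -0.35 to 0.51 (Sstr1). In PE-/- mice they ran from -0.069 to 0.43 (Ghrhr), -0.082 to 0.18 (Trhr), -0.34 to 0.18 (Crhr1), -0.35 to 0.15 (Avpr1b), -0.16 to 0.17 (Drd2), -0.12 to 0.44 (Sstr1), -0.78 to 0.26 (Sstr2) and -0.14 to 0.039 (Sstr3). In the interaction they ran from -0.079 to 0.56 (Crhr1), -0.42 to 0.079 (Avpr1b) and -0.46 to 0.47 (Sstr1). Ghrhr, Ghsr, Trhr, Sstr2 and Sstr5 kept their direction in females, in the sex comparison of PE+/- mice and in the interaction under every alternative run.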
